A study of Rattus norvegicus with 48 samples.

Results

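The genes described here encode the subunits of the NADPH oxidases and the small GTPases that switch these enzymes on: Nox4, Cybb, Cyba, Rap1a, Rac1, Rac2, Ncf1 and Ncf4. They were chosen by symbol, as every probe that the array's annotation gives to one of these 8 genes. They are 8 of 13278 genes with a symbol on the array, and each had 1 of its 22226 probes. All 8 passed the filter on low values in both tissues, which kept probes that 6 or more arrays detected at a p-value under 0.05. Nox4, Cybb, Cyba, Rap1a, Rac1, Rac2 and Ncf1 were detected in all 24 arrays of each tissue, and Ncf4 in 22 of 24 in the cortex and 22 of 24 in the medulla.

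Kidneys of male rats were taken after 28 days on 1 of 4 regimens and divided into renal cortex and renal medulla, and the RNA of each tissue was read on Illumina BeadChips. Control rats ate regular chow. The HLP rats ate chow with 5% hydroxy-L-proline, a precursor of oxalate that loads the kidney with calcium oxalate. The apocynin rats ate regular chow and drank apocynin (4 mmol in the labels), a compound used to inhibit assembly of the phagocyte oxidase, and the HLP+Apocynin rats received both. Each of the 8 groups held 6 arrays, 48 in all. The strain is given as Wistar in the labels and as Sprague-Dawley in the study's methods, and the group on apocynin alone appears only in the labels. The labels give 28 days as the age, which is also the length of the regimens, whereas the methods describe older rats.

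NADPH oxidases carry electrons across a membrane from NADPH to oxygen. In phagocytes the catalytic subunit gp91phox (Cybb, also called Nox2) sits in the membrane with p22phox (Cyba), and the enzyme stays silent until p47phox (Ncf1), p40phox (Ncf4) and other cytosolic subunits join it together with a Rac GTPase. Nox4 also needs p22phox, but it is active without the cytosolic subunits, is plentiful in kidney tubules and releases mainly hydrogen peroxide.

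The probe measures transcript only, on a log2 scale of background-corrected and quantile-normalized signal, and a level on 1 probe cannot be set against the level on another. In a piece of tissue, fewer cells of a type and less RNA per cell cannot be told apart. The background correction flattens dim probes: the median of all normalized signals was 6.50 and the lowest 6.37, so a difference for Ncf4, at 6.49 to 6.80, is understated, and those for Cybb and Rap1a, mostly near 7, are understated to a lesser degree. Median raw signals of the arrays ranged from 36.4 to 75.1 and the share of probes detected from 48.2% to 52.9%.

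Several facts about the arrays touch every result and were established without the member genes. Each array was placed on a line from the mean cortex array at 0 to the mean medulla array at 1, using all detected probes other than the members. On that line 3 arrays lay nearer the other tissue than their own: control cortex 4 at 0.95, control medulla 4 at −0.01 and apocynin medulla 4 at 0.06. The labels of the deposited tables also differ: the table of log2 values gives 24 of 48 arrays another diet group than the table of signals, although 0 change tissue and 0 move between apocynin and no apocynin. Group comparisons below use the names of the signal table, and values under the other names are given for the differences described most closely. The contrast of the 2 apocynin groups with the 2 others, and that of cortex with medulla over all 4 groups, take the same arrays under either set of names. The arrays with and without apocynin stand in separate blocks of 12 columns of the signal table for each tissue, with median raw signals of 36.4 to 39.9 in control cortex and 43.5 to 50.6 in apocynin cortex, so an effect of apocynin cannot be told apart from a difference between the blocks. In the medulla these medians overlapped slightly, at 55.1 to 61.1 in control and 60.8 to 75.1 in apocynin arrays. Those of HLP medulla, at 49.3 to 53.5, and HLP+Apocynin medulla, at 55.6 to 67.4, did not overlap.

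Among the member genes, Nox4 and Cyba were the only ones with large differences between cortex and medulla, and both were higher in the cortex. Averaged over the 4 diet groups, Nox4 signal was 3.5-fold and Cyba signal 2.02-fold higher in the cortex. Rap1a was slightly lower there. These 3 of 8 members were called (adjusted p under 0.05, limma with Benjamini-Hochberg adjustment over 12900 probes), against a background of 60.5% of all probes called in the same comparison.

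Nox4, the tubular catalytic subunit, lies on chromosome 1. The sequences around the start sites of Nox4 and of Cyba, its membrane partner on chromosome 19, are shown because these genes shared the cortical excess. They come from RefSeq on the rat build GRCr8, at chr1:150313639-150313938 on the plus strand for Nox4 and at chr19:67404165-67404464 on the minus strand for Cyba, with 250 bases before the start and 50 after it. Capitals mark every match to the GC box GGGCGG, searched with its reverse CCGCCC.
Nox4: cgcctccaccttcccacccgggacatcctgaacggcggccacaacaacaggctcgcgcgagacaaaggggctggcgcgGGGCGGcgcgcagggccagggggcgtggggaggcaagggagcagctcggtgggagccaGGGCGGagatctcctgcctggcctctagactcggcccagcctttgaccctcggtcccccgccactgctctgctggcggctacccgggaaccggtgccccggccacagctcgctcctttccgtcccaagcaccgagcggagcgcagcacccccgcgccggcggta
Cyba: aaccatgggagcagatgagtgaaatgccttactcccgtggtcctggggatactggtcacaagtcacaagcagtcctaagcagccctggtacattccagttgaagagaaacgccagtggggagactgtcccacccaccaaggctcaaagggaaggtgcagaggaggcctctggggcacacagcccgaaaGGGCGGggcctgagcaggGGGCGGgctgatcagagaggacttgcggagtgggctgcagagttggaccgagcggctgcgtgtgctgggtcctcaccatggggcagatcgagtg
Both windows held 2 GC boxes, which began at −172 and −114 from the start in Nox4 and at −62 and −44 in Cyba. The start used for Nox4 lay inside the gene, whose annotated span begins earlier in the window, at chr1:150313736. Distances from that position would differ. Of 33469 rat promoters of the same length, 33.1% held at least 1 GC box on either strand. The windows of Nox4 and Cyba held no match to GAGGAA, the core of PU.1 sites, or to CCAAT, on either strand.

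Nox4 signal in control cortex ran from 8.80 through a median of 10.23 to 10.43, and in control medulla from 6.72 through 7.96 to 10.19. In HLP rats it ran from 10.34 through 10.57 to 11.18 in the cortex and from 7.67 through 8.71 to 9.64 in the medulla. The HLP cortex arrays thus all lay above the HLP medulla arrays, whereas the control tissues overlapped through arrays 4 of both. In apocynin rats Nox4 ran from 9.98 through 10.68 to 10.83 in the cortex and from 7.46 through 8.75 to 10.17 in the medulla. In HLP+Apocynin rats it ran from 9.71 through 10.32 to 11.06 in the cortex and from 6.83 through 8.78 to 10.01 in the medulla. Both of these groups overlapped between the tissues through their highest medulla array.

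The cortex exceeded the medulla by 1.81 on the log2 scale for Nox4 (SE 0.22, adjusted p = 5.81e-09, limma). In the control groups alone, where 29.9% of probes were called, the difference was 1.68 (SE 0.45, adjusted p = 0.00387, limma), and 2.26 (SE 0.45) with the names of the log2 table. There 2 of 8 members were called with limma, Nox4 and Cyba, and 0 by the methods' t-test. It was 1.95 in HLP, 1.88 in apocynin and 1.70 in HLP+Apocynin rats. Without the 3 arrays that lay nearer the other tissue, the mean difference was 2.03 (SE 0.20) and that of the controls 2.30 (SE 0.41). With the cortex and medulla arrays matched by group and number, which the labels do not state to be the same rat, Nox4 was higher in the cortex in 23 of 24 pairs, by up to 3.02. The exception was control 4, at −1.39.

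Cyba, which encodes p22phox, varied little within the 3 treated cortex groups. It ran from 13.07 through 13.11 to 13.22 in HLP cortex, from 13.02 through 13.17 to 13.23 in apocynin cortex and from 12.96 through 13.13 to 13.24 in HLP+Apocynin cortex. Control cortex spread more widely, from 12.34 through 13.02 to 13.27, with array 4 as its lowest. In the medulla the controls spread most, from 10.65 through 11.52 to 13.25. The other medulla groups ran from 11.24 through 11.95 to 12.40 in HLP, from 11.77 through 12.23 to 13.14 in apocynin and from 11.78 through 12.32 to 12.89 in HLP+Apocynin. HLP and HLP+Apocynin cortex arrays did not overlap with their medulla arrays, while control arrays did through arrays 4 of both tissues and apocynin arrays through medulla array 4.

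Cyba was higher in the cortex by 1.02 on the log2 scale over the 4 groups (SE 0.13, adjusted p = 7.53e-09, limma) and by 1.23 in the controls (SE 0.25, adjusted p = 0.000336, limma), or by 1.45 (SE 0.25) with the names of the log2 table. By group the difference was 1.22 in HLP, 0.84 in apocynin and 0.77 in HLP+Apocynin rats. Without the 3 doubted arrays the mean difference was 1.16 (SE 0.10) and that of the controls 1.66 (SE 0.20). The cortex was higher in 23 of 24 pairs of arrays, and control 4 was again the exception, at −0.91.

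**Figure D1:**
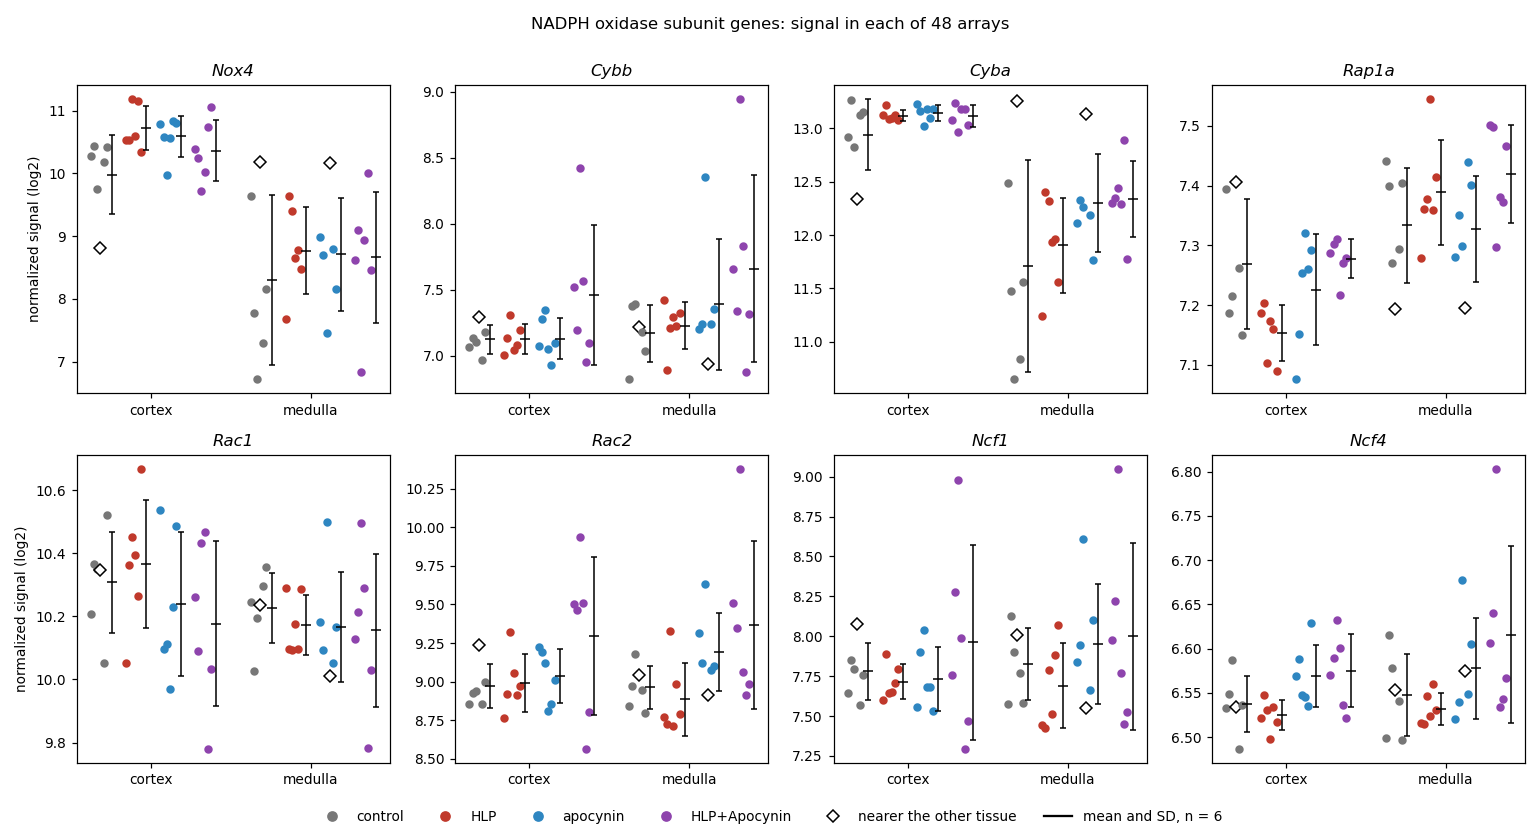
Normalized log2 signal (vertical axis) of each member gene in every array, grouped by tissue and coloured by diet, with the mean and SD of the 6 arrays of each group. Open diamonds are the 3 arrays that lie nearer the other tissue, such as control cortex 4 at 8.80 for Nox4, and the vertical scale differs between panels.

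Rap1a encodes a small GTPase that was found bound to the phagocyte flavocytochrome. Its signal ran from 7.08 to 7.41 over the 24 cortex arrays and from 7.19 to 7.54 over the 24 medulla arrays, so the tissues overlapped widely. The cortex was lower by a mean of −0.14 (SE 0.03, adjusted p = 2.1e-05, limma) and was higher in 3 of 24 pairs. In the controls alone the difference was −0.06 (SE 0.05, adjusted p = 0.372, limma).

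The remaining members were not called between the tissues. The cortex minus medulla difference was −0.15 (SE 0.11) for Cybb, 0.09 (SE 0.06) for Rac1, the widely expressed Rac, −0.03 (SE 0.09) for Rac2, the Rac of blood cells, −0.07 (SE 0.10) for Ncf1 and −0.02 (SE 0.01) for Ncf4. Their calls depended on how the arrays were brought to a common scale. Median scaling in place of quantile normalization moved the median of all probes to −0.07 for the mean of 4 groups and to −0.13 for the controls. It also moved the share of called probes that were higher in the cortex from 52.1% to 21.2%, and from 45.8% to 14.1% in the controls. With it 7 of 8 members were called over the 4 groups: Nox4 at 1.51 and Cyba at 0.75 stayed higher in the cortex, while Rap1a at −0.35, Cybb at −0.35, Rac2 at −0.36, Ncf1 at −0.38 and Rac1 at −0.19 were lower there, the last with its direction turned.

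**Figure D2:**
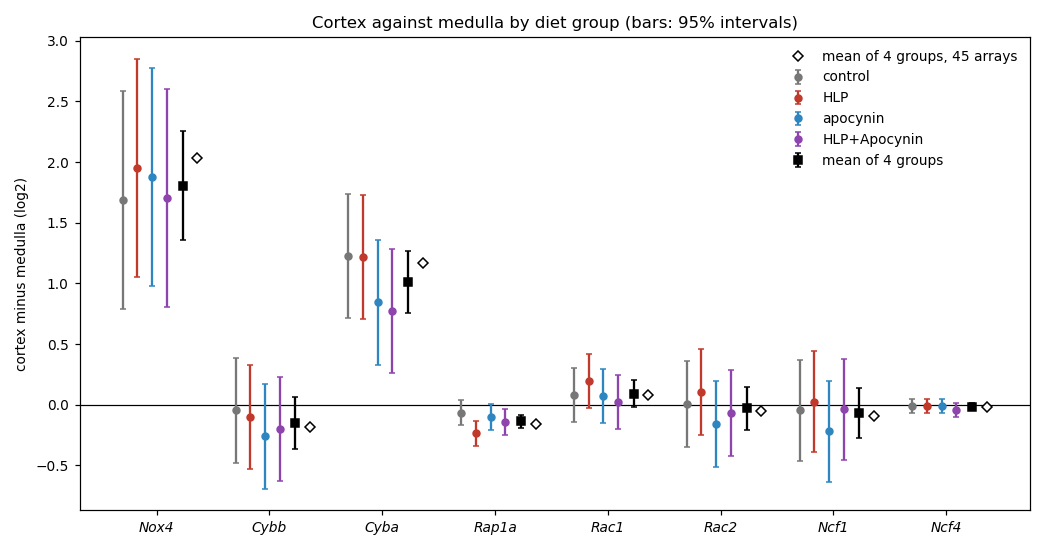
Cortex minus medulla difference in log2 signal (vertical axis) for each member, by diet group (coloured points) and as the mean of 4 groups (black squares), with 95% intervals from the fit. Open diamonds give the mean without the 3 arrays nearer the other tissue, at 2.03 for Nox4 and 1.16 for Cyba, where the other 6 members lie near 0.

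Within a tissue, Nox4 and Cyba followed the position of the array between cortex and medulla. Over 24 arrays of a tissue Nox4 correlated with the position at r = −0.89 in the cortex and −0.82 in the medulla, and Cyba at −0.84 and −0.88. The points share their arrays and their normalization, and the position was made without the member genes. Leaving out the 2 arrays farthest from the median position gave −0.74 and −0.85 for Nox4 and −0.38 and −0.90 for Cyba. Spearman's rho for Cyba in the cortex was −0.23 over all 24 arrays, so the relation of Cyba in the cortex rested on those arrays. The control cortex arrays lay at −0.16 to 0.95 on this line with a median of 0.26, and the HLP cortex arrays at −0.28 to −0.04.

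In the medulla Nox4 correlated at 0.98 with the mean of 5 proximal tubule markers (Slc34a1, Slc5a2, Slc22a6, Slc22a8 and Cubn), and Cyba at 0.78. In the cortex these values were 0.82 and 0.89, and 0.55 and 0.59 without the 2 arrays farthest from the median of the markers. Spearman's rho in the cortex was 0.60 and 0.49 over all 24 arrays. In the medulla leaving out 2 arrays in the same way gave 0.98 and 0.94. Once group means were removed, the genes whose signal was most like that of Nox4 over 24 medulla arrays were Spp2 (r = 0.99), Slc34a3 (0.99) and Slc22a8 (0.98). The last of these is itself one of the 5 markers. In the cortex they were Maob (0.94), Npl (0.92) and Pygl (0.90). For Cyba they were Slc3a2 (0.95), Hpd (0.92) and Phgdh (0.92) in the cortex, and Scpep1 (0.98), Slc40a1 (0.98) and Slc7a7 (0.97) in the medulla.

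Nox4 and Cyba did not always move together. They correlated at 0.72 in the cortex and 0.77 in the medulla over 24 arrays each. In HLP+Apocynin medulla 3 Nox4 was at 6.83, the lowest of its group, while Cyba was at 12.44, above the group's median of 12.32. In apocynin medulla 3 Nox4 was at 7.46, again the lowest of the group, and Cyba at 12.27 lay above the median of 12.23. Control medulla 3, in contrast, was lowest for both, at 6.72 and 10.65. Without the HLP+Apocynin arrays numbered 3 the correlation in the medulla was 0.90.

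**Figure D3:**
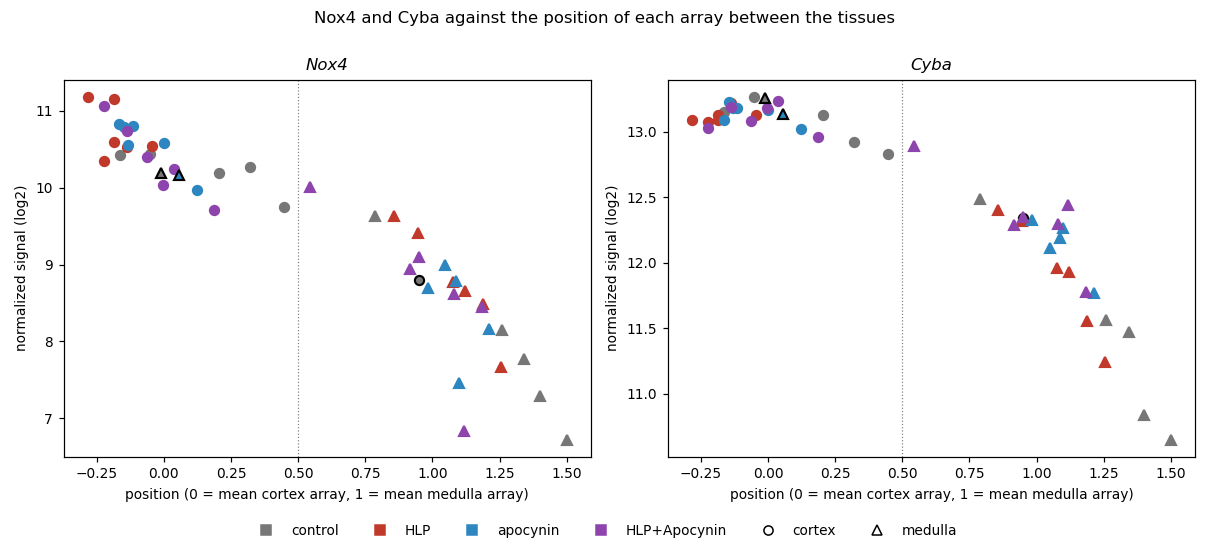
Normalized log2 signal of Nox4 and Cyba (vertical axes) against the position of each of 48 arrays between the mean cortex array (0) and the mean medulla array (1), with diet by colour and tissue by symbol. The dotted line at 0.5 separates the tissues except for the 3 arrays outlined in black, and Nox4 falls below 7 only in control medulla 3 and HLP+Apocynin medulla 3.

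The catalytic subunit Cybb, the GTPase Rac2 and the cytosolic subunits Ncf1 and Ncf4, which phagocytes use together, are described as a second group. Over 24 medulla arrays their pairwise correlations lay between 0.83 and 0.88, and between 0.63 and 0.78 without HLP+Apocynin 3. In the cortex they were 0.86 for Cybb and Rac2, 0.84 for Cybb and Ncf1 and 0.79 for Rac2 and Ncf1, while those with Ncf4 were 0.54 to 0.62. Without HLP+Apocynin 3 the first 3 became 0.83, 0.58 and 0.64, and those with Ncf4 0.33 to 0.48. The sequences around the start sites of Cybb on chromosome X and Ncf1 on chromosome 12 are shown as examples of it, from RefSeq on GRCr8 at chrX:16065016-16065315 on the minus strand and chr12:28121635-28121934 on the plus strand. Capitals mark matches to GAGGAA, the core of sites for the myeloid factor PU.1, with its reverse TTCCTC, to CCAAT with its reverse ATTGG, and to the GC box.
Cybb: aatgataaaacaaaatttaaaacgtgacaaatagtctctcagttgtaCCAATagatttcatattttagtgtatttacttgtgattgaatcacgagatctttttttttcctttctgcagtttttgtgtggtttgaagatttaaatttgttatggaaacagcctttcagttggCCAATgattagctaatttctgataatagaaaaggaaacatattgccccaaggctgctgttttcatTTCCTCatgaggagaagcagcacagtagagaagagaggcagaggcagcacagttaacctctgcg
Ncf1: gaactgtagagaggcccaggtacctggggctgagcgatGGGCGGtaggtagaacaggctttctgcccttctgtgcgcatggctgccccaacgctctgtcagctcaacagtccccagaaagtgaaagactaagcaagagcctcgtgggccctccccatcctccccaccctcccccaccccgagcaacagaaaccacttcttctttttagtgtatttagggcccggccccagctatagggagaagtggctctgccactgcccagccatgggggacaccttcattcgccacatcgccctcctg
Cybb held 1 PU.1 core, in reverse, beginning at −14 from the start, and 2 CCAAT boxes, at −203 and −79. Ncf1 held 1 GC box at −212 and neither of the other motifs. The start used for Ncf1 also lay inside the gene, whose annotated span begins earlier in the window, at chr12:28121816. Over 33469 promoters, 27.6% held GAGGAA and 37.5% CCAAT on either strand. A promoter of Rap1a was also matched (5 of 8 members in all), and it held 1 PU.1 core and 2 GC boxes.

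HLP+Apocynin array 3 was the highest of its tissue for Cybb, Rac2, Ncf1 and Ncf4, in the cortex as in the medulla. Its diet group is uncertain, since the names of the log2 table place it in the group on apocynin alone in both tissues. Cybb reached 8.42 in that cortex array and 8.94 in that medulla array, against medians of 7.12 over the 24 cortex and 7.27 over the 24 medulla arrays. Rac2 reached 9.94 and 10.38 against medians of 8.99 and 9.01, and Ncf1 8.98 and 9.05 against 7.73 and 7.81. The next highest Cybb in the medulla was apocynin 3, at 8.36. Ncf4 reached 6.80 in that medulla array against a median of 6.55, which in raw signal was 146 against 67.6.

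The mean of 4 leukocyte markers (Ptprc, Cd53, Laptm5 and Coro1a) was also highest in these arrays, at 8.46 in HLP+Apocynin cortex 3, 8.97 in HLP+Apocynin medulla 3 and 8.32 in apocynin medulla 3. The tissue medians of this mean were 7.41 and 7.58. Over 24 arrays it correlated with Cybb at 0.89 (cortex) and 0.93 (medulla) in that order of tissues, with Rac2 at 0.86 and 0.94, with Ncf1 at 0.93 and 0.91, and with Ncf4 at 0.64 and 0.92. Without the 2 arrays farthest from the median of the markers these values were 0.65 and 0.73 for Cybb, 0.72 and 0.80 for Rac2, 0.88 and 0.75 for Ncf1, and 0.40 and 0.70 for Ncf4. The points share arrays, depth and normalization, and the part of leukocytes in any difference between groups was not tested. Of the macrophage markers Cd14, Aif1, Tyrobp and Fcer1g were detected in all 48 arrays, Itgam in 5 of 24 arrays of either tissue and Cd163 in 0 of 24 cortex and 1 of 24 medulla arrays. The neutrophil markers S100a8, S100a9 and Mpo were detected in 0 arrays.

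Genes were ranked by how closely they followed each of these members over 24 arrays with group means removed. Cybb was closest to P2ry12 (r = 0.96), Ccr1 (0.95) and Otulinl (0.95) in the cortex and to Fkbp10 (0.96), Otulinl (0.95) and Slc39a6 (0.95) in the medulla. Rac2 was closest to Clec4a3 (0.90), Fcer1g (0.88) and Clec4a1 (0.88) in the cortex and to Pld4 (0.94), Pycard (0.93) and Clec4a1 (0.93) in the medulla. Ncf1 followed C2 (0.93), Tlr2 (0.93) and Myo1f (0.92) in the cortex and Plek (0.94), C2 (0.92) and Ikbip (0.92) in the medulla. Ncf4 followed Pycard (0.74), Oasl (0.72) and Serpinb9 (0.71) in the cortex. In the medulla Ncf4 followed Vav1 (0.95), which encodes an exchange factor for Rac, Psmb10 (0.93) and Tent5a (0.93). With group means removed, Rac1 correlated at 0.41 (cortex) and 0.66 (medulla) with the leukocyte markers, at 0.65 and 0.58 with Rac2 and at 0.52 and 0.78 with Cybb. With group means kept, its correlation with the markers was 0.22 and 0.53, and 0.06 and 0.03 without the 2 arrays farthest from their median. Those with Rac2 were 0.42 and 0.43, and 0.41 and 0.18 without HLP+Apocynin 3. Those with Cybb were 0.31 and 0.65, and 0.33 and 0.54 without HLP+Apocynin 3.

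**Figure D4:**
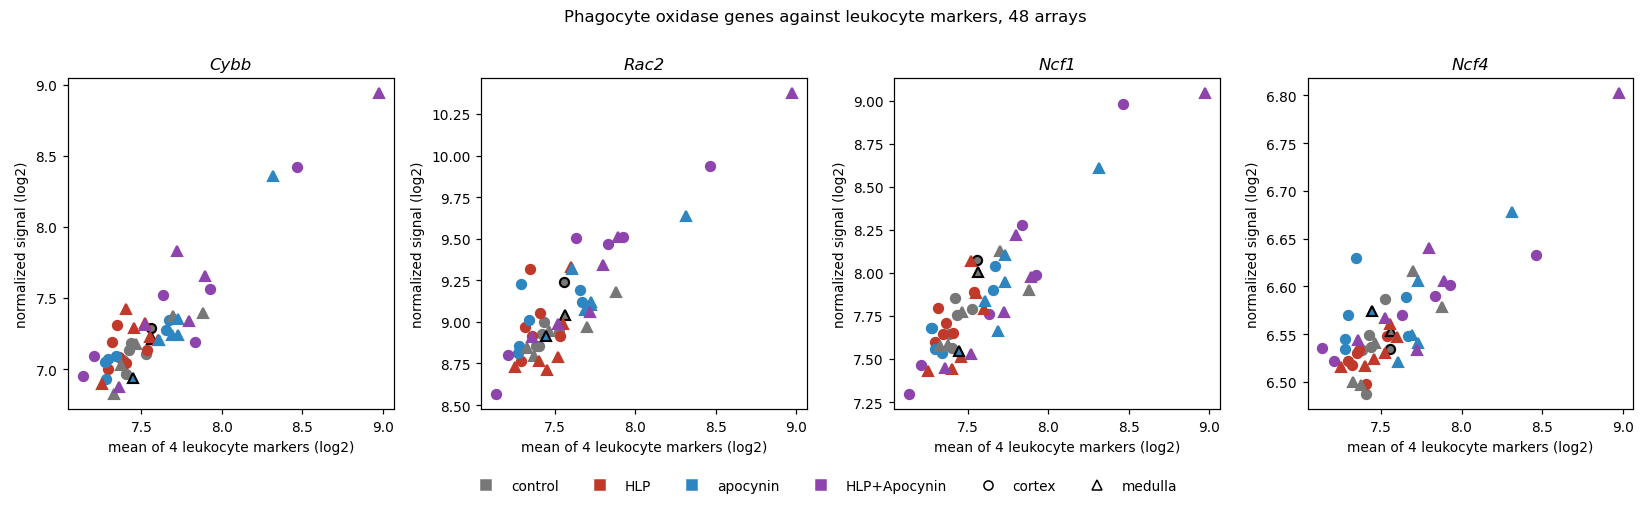
Normalized log2 signal of Cybb, Rac2, Ncf1 and Ncf4 (vertical axes) against the mean log2 signal of 4 leukocyte markers in each of 48 arrays, with diet by colour and tissue by symbol. The arrays at the upper right are HLP+Apocynin 3 of both tissues, at 8.46 and 8.97, and apocynin medulla 3, at 8.32.

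The comparison of HLP with control asked whether loading with hydroxyproline changed the oxidase transcripts. In the cortex no member was called (0 of 8 with limma, 2 of 8 at an unadjusted p under 0.05, 0 by the methods' t-test), against 2.46% of 12268 probes called and 21.5% at an unadjusted p under 0.05. Nox4 came nearest, with a mean of 10.73 ± 0.35 in HLP and 9.98 ± 0.63 in control cortex (SD, n = 6). The groups overlapped, although all 6 HLP arrays lay above the control mean. The difference was 0.75 on the log2 scale (SE 0.25, 95% interval 0.23 to 1.26, adjusted p = 0.0931, limma). Without control cortex 4 it was 0.51 (SE 0.21, adjusted p = 0.195, limma), and with the names of the log2 table it was −0.33 (SE 0.29). The median position of the arrays was 0.26 in control and −0.19 in HLP cortex, and its part in the difference was not tested.

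The other members differed little between HLP and control cortex. Cyba was at 13.12 ± 0.05 against 12.94 ± 0.33, a difference of 0.18 (SE 0.10), and Rap1a at 7.15 ± 0.05 against 7.27 ± 0.11, a difference of −0.12 (SE 0.05, adjusted p = 0.193, limma), which was −0.02 with the names of the log2 table. Cybb differed by 0.00 (SE 0.16), Rac1 by 0.06 (SE 0.12), Rac2 by 0.02 (SE 0.16), Ncf1 by −0.07 (SE 0.19) and Ncf4 by −0.01 (SE 0.02). The widest 95% interval among these 7, that of Ncf1, ran from −0.45 to 0.32.

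In the medulla 0 of 8 members were called for HLP, 0 at an unadjusted p under 0.05 and 0 by the methods' t-test. Of 11972 probes 0% were called and 6.62% had an unadjusted p under 0.05. Nox4 differed by 0.48 (SE 0.56, 95% interval −0.69 to 1.64) and Cyba by 0.19 (SE 0.34), so that a change of Nox4 of either sign could not be resolved with these arrays. The intervals of Rap1a, at 0.06 (−0.06 to 0.17), and Rac1, at −0.05 (−0.25 to 0.14), were narrower. Averaged over the presence of apocynin, HLP gave 0 of 8 called members in either tissue, with 0 at an unadjusted p under 0.05. Over all probes 0% were called in either tissue, and 12.3% in the cortex and 10.5% in the medulla had an unadjusted p under 0.05. The HLP effect did not differ detectably between the tissues for any member (0 of 8 called, 1 at an unadjusted p under 0.05, background 0% called and 4.08% at that unadjusted threshold). For that 1, Rap1a, the effect in the cortex was lower than that in the medulla by −0.11 (SE 0.05, adjusted p = 0.999, limma).

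Apocynin alone was compared with control to see what the compound did without an oxalate load. In the cortex 0 of 8 members were called (2 at an unadjusted p under 0.05, 0 by the methods' t-test), against 16.8% of probes called and 30.2% at that unadjusted threshold. Nox4 was higher by 0.61 (SE 0.25, adjusted p = 0.0963, limma) and Cyba by 0.21 (SE 0.10, adjusted p = 0.162, limma), both relative to the control group that includes array 4. Without that array the difference of Nox4 was 0.37, and with the names of the log2 table it was −0.11. In the medulla 0 of 8 were called, 0 at an unadjusted p under 0.05, against 7.13% of probes called and 21.3% at that unadjusted threshold. The largest difference there was that of Cyba, at 12.30 ± 0.45 against 11.71 ± 0.99, or 0.59 (SE 0.34, adjusted p = 0.329, limma). Leaving out control medulla 4 raised it to 0.90 (SE 0.29, adjusted p = 0.0485, limma), which made Cyba the 1 member called, and the other settings gave differences of 0.38 to 0.87. With the names of the log2 table it was 0.78 (SE 0.33, adjusted p = 0.102, limma). The 5 tested proximal tubule markers were at higher means in the apocynin medulla arrays, by a median of 0.55 with 0 called, and the median position was 1.07 against 1.30 in control. Their part in the difference was not tested.

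HLP+Apocynin was set against control and against HLP. Against control, 0 of 8 members were called in the cortex (1 at an unadjusted p under 0.05) where 16.1% of probes were, and 0 of 8 in the medulla (1 at an unadjusted p under 0.05) where 7.35% were. Against HLP, 0 of 8 were called in the cortex (3 at an unadjusted p under 0.05, background 18.4%) and 0 of 8 in the medulla (2 at an unadjusted p under 0.05, background 8.25%). Over all probes the shares at that unadjusted threshold were 30.3% and 24.8% against control, and 33.1% and 25.4% against HLP. The methods' t-test called 0 in these comparisons other than Rap1a for HLP+Apocynin against HLP in the cortex. There Rap1a ran from 7.22 through 7.28 to 7.31 in HLP+Apocynin and from 7.09 through 7.17 to 7.20 in HLP, without overlap. The difference was 0.12 (SE 0.05, adjusted p = 0.0945 with limma and 0.00951 with the methods' t-test), and all 6 arrays lay above the HLP mean. With the names of the log2 table it was 0.06 (SE 0.06). The comparisons with control and with HLP share the HLP+Apocynin arrays. Ncf4 was next, at 0.05 (SE 0.02, adjusted p = 0.0573, limma), and it was called when control cortex 5, apocynin cortex 6 or HLP+Apocynin cortex 5 or 6 was left out. Without HLP+Apocynin cortex 5, 3 members were called: Cybb, Rac2 and Ncf4. Cyba in the medulla differed from control by 0.63 (SE 0.34, adjusted p = 0.25, limma) and by 0.94 (SE 0.29, adjusted p = 0.0384, limma) without control medulla 4. With the names of the log2 table it was 0.69 (SE 0.33, adjusted p = 0.206, limma).

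The phagocyte members had wide spreads in the HLP+Apocynin groups as named in the signal table, where array 3 was the highest in both tissues. The names of the log2 table place that array of either tissue in the group on apocynin alone. Cybb was at 7.46 ± 0.53 in HLP+Apocynin cortex and 7.13 ± 0.11 in HLP cortex, a difference of 0.33 (SE 0.16, adjusted p = 0.143, limma). In the medulla it was at 7.66 ± 0.71 and 7.23 ± 0.18, a difference of 0.43 (SE 0.25). Rac2 was higher by 0.31 in the cortex (SE 0.16) and by 0.48 in the medulla (SE 0.18, adjusted p = 0.1, limma), where all 6 HLP+Apocynin arrays lay above the HLP mean. With the names of the log2 table the cortex differences were 0.05 for Cybb and 0.11 for Rac2, and those of the medulla 0.15 and 0.25. By the names of the signal table the mean of the leukocyte markers had medians of 7.73 in HLP+Apocynin and 7.35 in HLP cortex. In the medulla these were 7.76 and 7.49. Of 4 leukocyte markers 0 were called for HLP+Apocynin against HLP in either tissue. Their medians were not taken under the names of the log2 table. Nox4 went the other way in the cortex, at −0.36 (SE 0.25) against HLP, and at 0.36 with the names of the log2 table.

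With all 24 arrays of a tissue, 12 with apocynin against 12 without, 1 of 8 members was called in the cortex, against 26.8% of probes, and 0 of 8 in the medulla (3 at an unadjusted p under 0.05, 0 by the methods' t-test), against 23.4%. Of all medulla probes 36% had an unadjusted p under 0.05. The called member was Ncf4, whose arrays ran from 6.53 to 6.63 in apocynin and from 6.52 to 6.63 in HLP+Apocynin cortex, and from 6.49 to 6.59 in control and from 6.50 to 6.55 in HLP cortex. It was higher with apocynin by 0.04 on this compressed scale (SE 0.01, adjusted p = 0.0213, limma), and 11 of 12 apocynin arrays lay above the mean of the 12 others. Without background correction the same difference was 0.20 (SE 0.06, adjusted p = 0.0194, limma). With the 12 cortex arrays that both tables place in 1 and the same group it was 0.03 (SE 0.02, adjusted p = 0.293, limma). The lymphocyte marker Cd3e was higher by 0.15 in the same contrast (SE 0.02, adjusted p = 6.08e-05, limma), the 1 called of 3 tested lymphocyte markers. Of these 3, 2 were higher and 1 lower, with a list median of 0.06. Cd3e was also dim, with a mean of 6.59 in the cortex and detection in 21 of 24 arrays. Of 4 leukocyte and 4 macrophage markers 0 were called, with list medians of 0.15 and 0.17. Their part in the difference of Ncf4 was not tested.

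Rac2 in the medulla stood at the threshold, higher with apocynin by 0.36, or 1.28-fold (SE 0.13, adjusted p = 0.0506, limma), and 10 of 12 apocynin arrays lay above the mean of the 12 others. The grouping of these 24 arrays is the same under both sets of names, but the fit by the names of the log2 table gave an adjusted p of 0.0314 with limma, and the alternatives that kept all arrays ran from 0.00773 to 0.238. Without the HLP+Apocynin arrays numbered 3 the difference was 0.25 (SE 0.09, adjusted p = 0.0471, limma). The leukocyte marker Laptm5 was higher by 0.77 in the same contrast (SE 0.22, adjusted p = 0.0125, limma), the 1 called of 4 tested leukocyte markers, whose list median was 0.18. Cyba in the medulla was higher by 0.51 (SE 0.24, adjusted p = 0.124, limma) with all arrays and by 0.58 (SE 0.19, adjusted p = 0.0265, limma) without control medulla 4 and apocynin medulla 4. Cybb was at 0.32 (SE 0.18), Ncf1 at 0.22 (SE 0.15), Ncf4 at 0.06 (SE 0.02), Nox4 at 0.15 (SE 0.40), Rap1a at 0.01 (SE 0.04) and Rac1 at −0.04 (SE 0.07).

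The effect of apocynin was not called as different between cortex and medulla for any member (0 of 8, 0 at an unadjusted p under 0.05) where 24.2% of probes were. Of all probes 35.1% had an unadjusted p under 0.05 in that comparison. For Cyba the effect in the cortex minus that in the medulla was −0.41 (SE 0.25, adjusted p = 0.252, limma), and −0.54 (SE 0.19, adjusted p = 0.0323, limma) without the 3 arrays nearer the other tissue. The effect of apocynin with HLP did not differ detectably from that without it (0 of 8 called in the cortex, where 2 had an unadjusted p under 0.05, and 0 of 8 in the medulla, where 0 had), against 0% of cortex probes and 0% of medulla probes called. At that unadjusted threshold the shares over all probes were 16.8% in the cortex and 2.14% in the medulla.

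**Figure D5:**
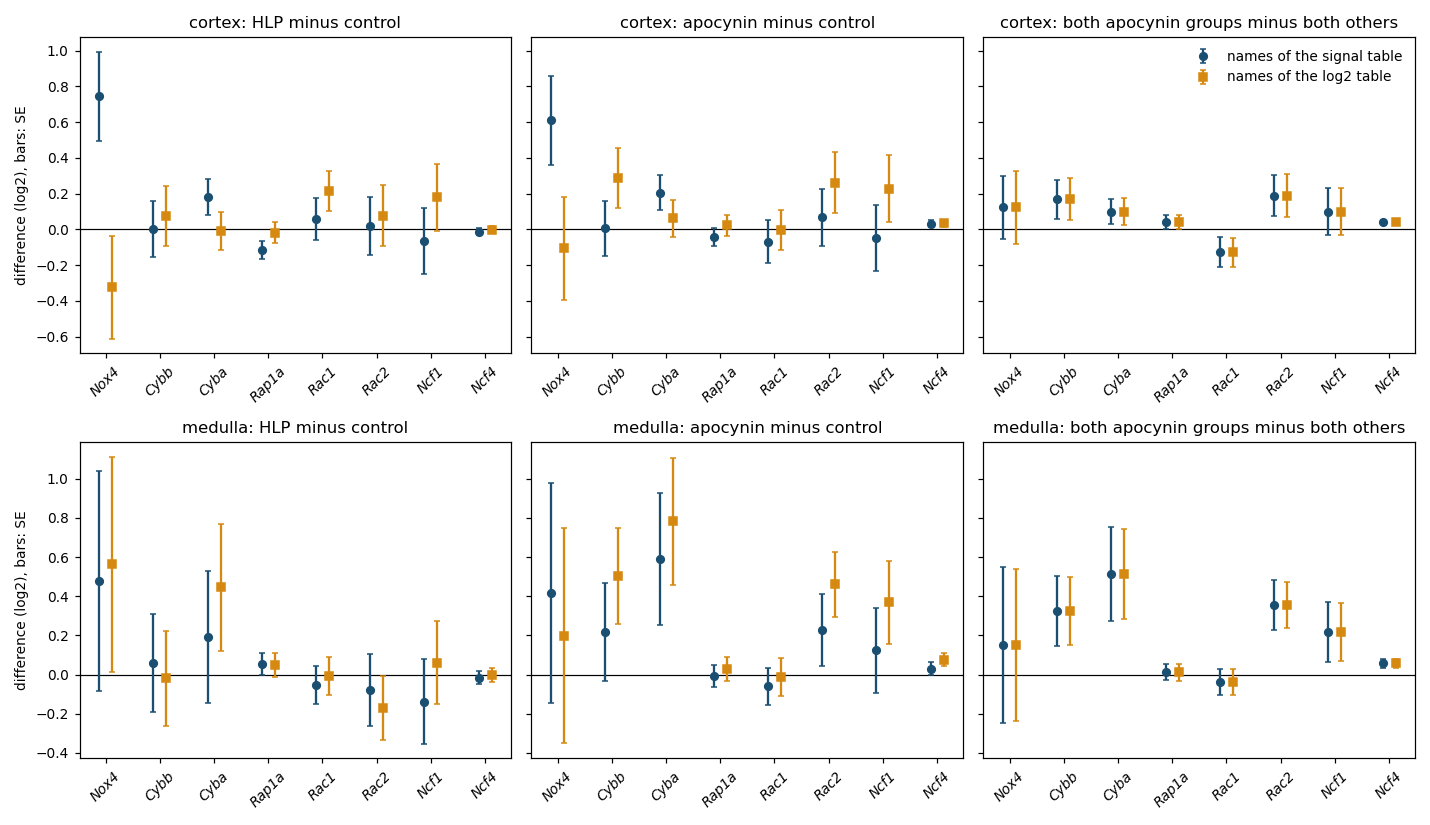
Differences in log2 signal (vertical axis, bars are SE) of each member for HLP minus control, apocynin minus control, and both apocynin groups minus both others, in cortex (top) and medulla (bottom). Circles use the group names of the signal table and squares those of the log2 table: Nox4 in HLP cortex is at 0.75 and −0.33, while the right-hand panels hold the same arrays under both names.

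Other genes of the pathway were taken from lists set for this purpose. Of 13 relatives of the oxidases, 5 had a probe (Nox3, Duox2, Duoxa1, Noxo1 and Noxa1), and these were detected in at most 13 of 24 arrays of a tissue. The others were not analysed here. No gene of this list, nor of the lists of regulators of Rac and Rap, of kinases of the cytosolic subunits or of enzymes that remove superoxide and peroxide, was called for HLP against control in either tissue with limma. At an unadjusted p under 0.05 these 4 lists gave 5 of 29 genes in the cortex and 1 of 27 in the medulla, where 21.5% and 6.62% of all probes were.

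Between cortex and medulla, 2 of 10 tested regulators and partners were called higher and 5 lower in the cortex, with a list median of −0.11 against 0.00 over all probes, of which 60.5% were called. Rap1gap, which turns Rap1 off, was lower by −1.49 (SE 0.17, adjusted p = 1.2e-09, limma), and P4hb, a protein disulfide isomerase that binds p47phox, by −0.31 (SE 0.03). Of 8 kinases 3 were called higher and 0 called lower in the cortex, Src among the former at 0.24 (SE 0.03). Of 9 disposal enzymes 3 were called higher, such as Gpx1 at 0.57 (SE 0.08) and Sod3 at 0.49 (SE 0.10). Another 2 were called lower, such as Prdx2 at −0.48 (SE 0.07). As a check of the tissue labels, 5 of 5 proximal tubule markers were higher in the cortex groups and 5 of 5 collecting duct and inner medulla markers lower. Single arrays went against this, with mean proximal tubule markers at 10.95 in control cortex 4 and 12.14 in control medulla 4, and mean collecting duct markers at 8.06 and 7.27.

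With apocynin, averaged over HLP, 0 of 10 regulators and 0 of 8 kinases were called in the cortex. Of 9 disposal enzymes 1 was called higher (Prdx1, 0.08) and 1 lower (Sod2, −0.16), against 26.8% of all probes called. Nox3 was higher by 0.04 and Duoxa1 lower by −0.03, both at signals near the floor of the scale. In the medulla 23.4% of all probes were called. There 2 of 9 regulators were called higher, Vav1 by 0.12 (SE 0.03) and Rapgef3, an exchange factor for Rap1, by 0.23 (SE 0.07). By direction alone 7 regulators were higher and 2 lower. Of 8 kinases 0 were called higher and 2 lower, Akt1 at −0.30 (SE 0.08) and Prkcz at −0.20 (SE 0.07). By direction alone 2 kinases were higher and 6 lower. Of the disposal enzymes the extracellular superoxide dismutase Sod3 was higher by 0.55 (SE 0.16, adjusted p = 0.0159, limma) and the cytosolic Sod1 lower by −0.19 (SE 0.04, adjusted p = 0.00273, limma). Vwf, an endothelial marker, was lower by −0.73 in the cortex and −0.88 in the medulla in the same contrast.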

How the data were processed

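RNA of renal cortex and medulla was hybridised to Illumina RatRef-12 BeadChips, 1 array per tissue and numbered sample. The deposited signal table holds, per the file headers, an average intensity and a detection p-value for each probe, not normalized. A second deposited table holds the authors' log2 values, with normalization not given in the sources used here, and served as an alternative. Intensities were corrected with nec in limma 3.58.1 under R 4.3.3 (offset 16) and quantile-normalized over 48 arrays. Probes detected at p under 0.05 in at least 6 arrays of the fit were tested with lmFit and eBayes, the 24 arrays of a tissue in 1 fit for diets and 48 for tissues, with Benjamini-Hochberg adjustment over all probes tested (threshold 0.05). The methods' t-test was run on the same values. The code was tested on simulated data.

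Member values are given for all 8 genes. Other genes come from marker and pathway lists or are the 3 most alike by Pearson correlation. The members and lists were chosen with earlier results of these data known. The labels do not say whether equal numbers name 1 rat. P-values measure only the spread between these arrays, and 6 per group limits the precision.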

Additional observations from a re-analysis of the deposited data

Results flagged for a closer look

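In 64 groups of 6 arrays (8 genes in 8 groups), 4 held an array that stood apart, its gap to the nearest other array being a larger share of the group's range than Dixon's 95% value allows. Chance alone gives about 1 in 20, or 5%. Nox4 in apocynin cortex 3 was at 9.975 where the next lowest array was at 10.56. Cybb in apocynin medulla 3 was at 8.357 where the next was at 7.354, and Rac1 in the same array was at 10.5 where the next was at 10.18. Cyba in HLP cortex 2 was at 13.22 where the next was at 13.12. Apocynin medulla 3 was also the array of its group with the highest mean of the leukocyte markers, at 8.32.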

How the results depend on the processing

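Over all settings, 1425 of the counts kept their value within 1.5 times and 143 moved, and among single differences 1908 kept direction and call, 40 gained a call, 3 lost one and 9 reversed. The names of the log2 table reversed Nox4 in the cortex for HLP against control (−0.33), apocynin against control (−0.11), HLP+Apocynin against HLP (0.36) and HLP averaged over apocynin (−0.0939), and Ncf1 for HLP+Apocynin against HLP (−0.0289). With those names and without the arrays nearest the other tissue, a setting chosen after seeing the data, the first 3 were −0.0481, −0.107 and 0.0787. Median scaling reversed Rac1 between the tissues (−0.19), called 7 members there and called 1 (Ncf4) for HLP+Apocynin against HLP in the cortex. The methods' t-test called 1 member in that last comparison (Rap1a) and 0 between the control tissues. The cause of these changes was not tested.

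For apocynin averaged over HLP in the medulla, 1 member (Rac2) was called with quantile normalization within each tissue, detection in every array, the authors' log2 values, the names of the log2 table, or without the HLP+Apocynin arrays numbered 3, which was chosen after seeing the data. Without the arrays nearest the other tissue 2 were called (Cyba and Rac2), as with the log2 names in addition. In the cortex the same contrast called 0 with detection in every array, which removes Ncf4, and 0 with only the arrays of the same group in both tables, which leaves 3 per group. Without the arrays nearest the other tissue 1 member (Cyba) was called in the medulla for HLP+Apocynin against control and 1 (Cyba) for the difference of the apocynin effect between tissues, and with the log2 names in addition 1 (Cyba) for apocynin against control in the medulla.

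Leaving out 1 array at a time gave 0 to 1 members in the medulla for apocynin and for HLP+Apocynin against control, and for the apocynin effect between tissues (Cyba, without control medulla 4), 0 to 1 for HLP+Apocynin against control in the cortex (Rac2, without HLP+Apocynin cortex 5), 0 to 3 for HLP+Apocynin against HLP in the cortex, 1 to 2 for apocynin averaged over HLP in the cortex (Rac2 added without HLP+Apocynin cortex 5), and 0 to 1 for it in the medulla (Cyba without control medulla 4, Rac2 without control 3, HLP 3, apocynin 4 or HLP+Apocynin 3, 4, 5 or 6). The tissue comparison kept 3 members, and 2 in the controls, in all 48 omissions.

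With the replicate number as a block, 1 member was called for HLP+Apocynin against HLP in the cortex (Ncf4, adjusted p = 0.0496, limma), 1 in the medulla (Rac2, 0.025) and 2 for apocynin averaged over HLP in the medulla (Rac2, 0.00773, and Ncf4, 0.0482). It changed no other call of a member. Within a tissue this block ties together arrays of different diet groups, hence of different rats, that share only a number. Deviations from group means between same-numbered arrays of different diets correlated at a median of 0.02 for cortex and 0.10 for medulla. Between cortex and medulla arrays of a group and number the median was 0.37 (−0.79 to 0.80), with 20 of 24 over 0.1. For arrays of a group with different numbers it was −0.06 (−0.60 to 0.67), with 23 of 120 over 0.1.

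Counts of called probes moved more than those of members. HLP against control in the cortex called 302 probes, 0 to 731 under other settings and 0 to 927 with 1 array left out. Apocynin against control called 2056 (630 to 3992) in the cortex and 854 (141 to 2186) in the medulla, HLP+Apocynin against control 1971 (710 to 3210) and 880 (126 to 1746), HLP+Apocynin against HLP 2255 (914 to 3841) and 988 (0 to 1274), and apocynin averaged over HLP 3282 (1467 to 6826) and 2799 (818 to 3137). Control cortex against control medulla called 3861 (1841 to 7363), and the apocynin effect between tissues 3116 (1451 to 5831). HLP averaged over apocynin, its interaction and its effect between tissues called 0, against at most 269, 66 and 11 elsewhere. Median scaling moved the share of calls that were higher with apocynin, averaged over HLP, from 48.9% to 29.2% in the cortex and from 43.7% to 21.1% in the medulla. For dim probes such as Ncf4 signal over background limits what could be seen.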
